A study of Rattus norvegicus with 16 samples.

Results

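Amino acid transporter genes were examined in liver and epididymal fat of Zucker diabetic fatty rats fed R-α-lipoic acid (LA), and 37 of them made up the set described here. The genes were taken by symbol from 7 solute carrier families (Slc1, Slc3, Slc6, Slc7, Slc36, Slc38 and Slc43) and kept when they reached 1 FPKM in at least 4 of the 16 libraries. FPKM counts the fragments of a transcript relative to its length and to all fragments mapped in that library. Of 22517 gene symbols in the files, 60 matched these families and 37 were kept, against 12079 symbols of all kinds at the same level. By family the kept genes were 5 of 7 in Slc1, 2 of 2 in Slc3, 6 of 18 in Slc6, 10 of 15 in Slc7, 3 of 4 in Slc36, 8 of 11 in Slc38 and 3 of 3 in Slc43. None of the other 23 reached 1 FPKM in any library, and 6 of them were listed at 0 in all 16. The highest value among those 23 was 0.907 FPKM, for Slc7a9 in a single fat library. The kept genes nearest to the limit were Slc7a4, with 4 libraries at 1 FPKM or more, Slc1a7 with 6 and Slc3a1 with 7.

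The rats were 8 obese males of the strain ZDF/GmiCrl-fa/fa, whose fa/fa genotype, shared by all groups, leaves them without a working leptin receptor. From 9 to 11 weeks of age, after 2 weeks of acclimation, they ate Purina 5008 chow, with 26.8% of calories from protein, for 2 weeks. The chow either contained LA, which carries sulphur and serves dehydrogenases of mitochondria, or was given without it as pair-feeding (PF). Each tissue under each feed gave 4 biological replicates, with no lean and no freely fed group among the samples analysed here.

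These transporters carry amino acids, and a few related small molecules, across the plasma membrane and the membranes of lysosomes. Many Slc7 proteins are light chains, which reach the cell surface only when joined to a glycoprotein heavy chain, Slc3a2 (4F2hc, also CD98) or Slc3a1 (rBAT). Many Slc38 and Slc1 proteins draw amino acids into the cell with sodium. Slc1a5 and most light chains exchange one amino acid for another. In liver, amino acid uptake feeds urea and glucose synthesis. Slc6 proteins use sodium and chloride and carry taurine, creatine, betaine, glycine and transmitters. Some names in the set need care. Slc43a3 is a nucleobase transporter, and Slc7a6os is the opposite-strand neighbour of Slc7a6 and no transporter. Because the library kit does not mark strand, reads of Slc7a6 and Slc7a6os cannot be told apart where they overlap, so both are uncertain.

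The marker lists matched the labelled tissues. The summed level of 12 hepatocyte markers ran in liver from 44077 to 54191 FPKM under PF and from 34234 to 41093 under LA, and in fat from 430 to 996 and from 96.5 to 868. Alb was the exception, listed at 0 in all liver libraries, so a listed 0 can be a failed estimate. In fat Alb was at 51.2 to 581 FPKM and made up most of each sum. The fat sums thus rest mainly on a gene that the liver sums lack. The adipocyte markers summed in fat to 50203 to 57493 FPKM under PF and 51741 to 56745 under LA, against 378 to 818 in liver, where Adipoq and Lep were listed at 0. Genes at 1 FPKM or more numbered 9522 to 9738 per liver library and 11276 to 11480 per fat library. Total read numbers are unknown. The worth of a single fragment, read from the steps between low values, was taken relative to PF liver replicate 1, and a lower worth means a deeper library. For liver it was 0.853 to 1 under PF against 0.722 to 0.894 under LA, and for fat 0.774 to 0.961 against 0.739 to 0.866. The fat values are rougher, as they rest on 57 to 77 genes per library. Liver libraries other than the reference had 212 to 337.

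The gene with the clearest response to LA was Slc3a2, so the sequences next to its annotated starts are shown. RefSeq (assembly GRCr8) held promoter windows for 29 of the 37 genes, 33 windows in all. Slc3a2 has a pair of annotated starts on the minus strand of chromosome 1, and the 250 bases before each, at chr1:215048065-215048314 and chr1:215039671-215039920, are written 5′ to 3′ on the gene's strand, with matches to the searched motifs in capitals.
Slc3a2 window 1: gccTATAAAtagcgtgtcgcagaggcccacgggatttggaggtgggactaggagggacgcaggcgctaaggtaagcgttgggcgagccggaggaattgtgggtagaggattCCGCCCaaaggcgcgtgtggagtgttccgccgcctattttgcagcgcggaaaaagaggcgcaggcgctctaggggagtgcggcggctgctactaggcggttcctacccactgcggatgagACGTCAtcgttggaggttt
Slc3a2 window 2: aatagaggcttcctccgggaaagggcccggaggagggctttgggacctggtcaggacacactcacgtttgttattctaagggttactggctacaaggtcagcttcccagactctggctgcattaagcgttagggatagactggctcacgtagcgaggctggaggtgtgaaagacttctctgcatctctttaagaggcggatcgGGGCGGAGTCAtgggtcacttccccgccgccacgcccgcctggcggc

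Matches were sought on both strands for a C/EBP-ATF composite element (TGATGNAA), the antioxidant response element core (TGACNNNGC), the CCAAT box (CCAAT), the GC box (GGGCGG), the TATA box (TATAAA), the E-box (CACGTG) and the half-site of the cyclic AMP response element (TGACGT). Window 1 holds TATAAA at 247 to 242 bases before the start, GGGCGG on the opposite strand at 139 to 134, and TGACGT on the opposite strand at 19 to 14. Window 2 holds GGGCGG at 47 to 42 and, overlapping it on the opposite strand, the antioxidant core as TGACTCCGC at 45 to 37. The composite element, which ATF4 is known to bind in genes of the amino acid response, was not among the letters of either window. Among 33469 windows of the same length in RefSeq, the share with a match was 3.4% for the composite element, 10.1% for the antioxidant core, 34% for CCAAT, 30.5% for the GC box, 12.9% for TATAAA, 5.59% for the E-box and 6.95% for TGACGT. In the 33 windows of the transporter genes there were 3 with the composite element, 7 with the antioxidant core, 7 with CCAAT, 17 with the GC box, 3 with TATAAA, 5 with the E-box and 4 with TGACGT. A match of letters is a description of the window and shows no binding.

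**Figure D1:**
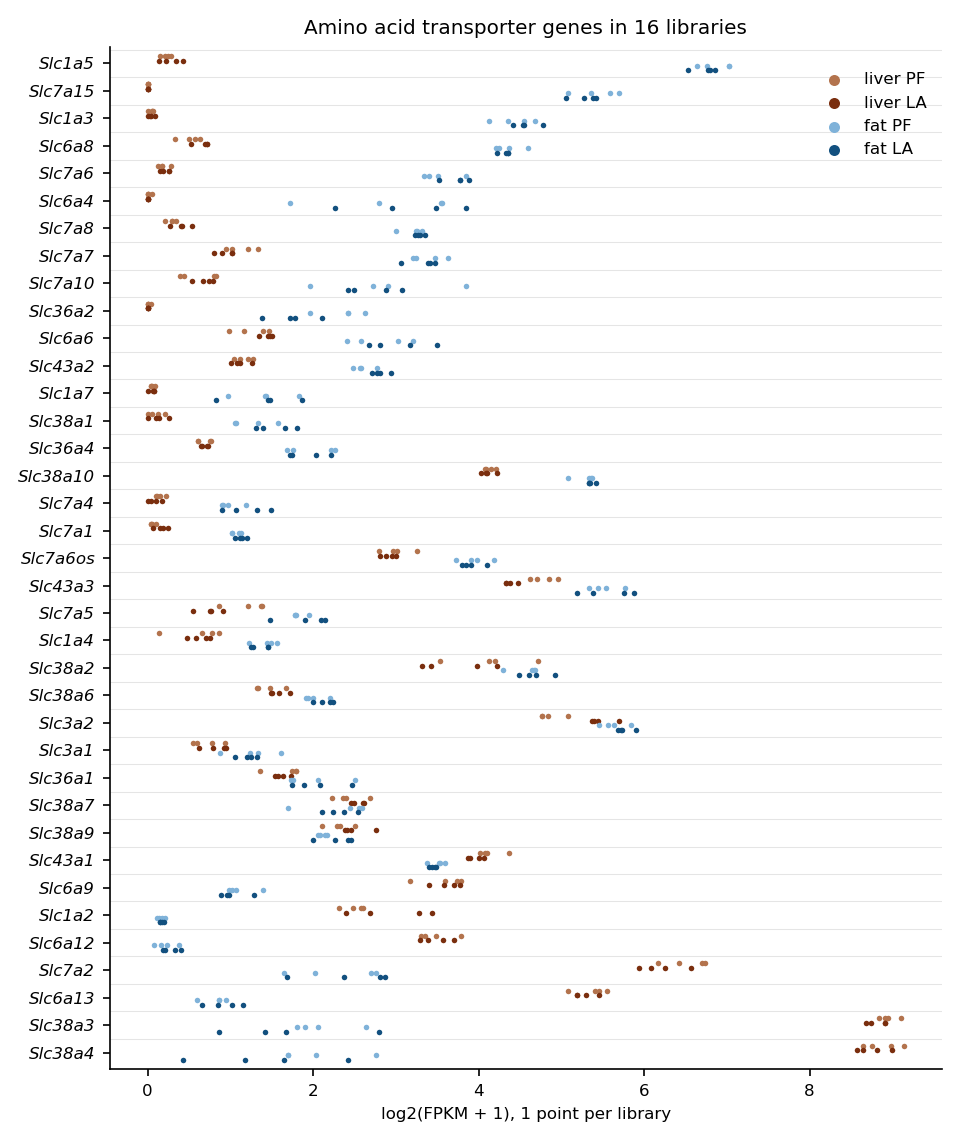
Level of each of the 37 genes in the 16 libraries, as log2(FPKM + 1), with 1 point per library and genes ordered by the difference between fat and liver in mean level over both feeds. Slc1a5 and Slc7a15 stand at the fat end, Slc38a3 and Slc38a4 at the liver end, and the libraries of the genes in the middle, such as Slc38a7 and Slc38a9, lie close together.

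In liver, a few genes made up nearly the whole level of the set. The summed level of the 37 genes was 1262 ± 117 FPKM (SD, n = 4) under PF and 1162 ± 93.2 (SD, n = 4) under LA, against 478 ± 23.8 and 477 ± 13.4 (SD, n = 4 each) in fat. Slc38a3 and Slc38a4, sodium-coupled neutral amino acid transporters, together with Slc7a2, a carrier of arginine, lysine and ornithine, held 82.4% to 86.6% of the sum in liver under PF and 81.1% to 84.2% under LA. In fat the same 3 genes held 1.38% to 3.13%. Fat spread its level over more genes, with Slc1a5, Slc3a2, Slc43a3, Slc7a15 and Slc38a10 together at 58.5% to 63.3% of the sum under PF and 56.8% to 61.2% under LA, against 5.06% to 6.39% in PF liver. By the level of 1 FPKM in 4 libraries of a tissue, 17 genes were found in both tissues, 17 in fat only and 3 (Slc1a2, Slc6a12 and Slc6a13) in liver only. In bulk tissue, fewer cells of a type and less RNA per cell cannot be told apart, here or below.

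The order of levels in PF liver ran from Slc38a3 (495 ± 40.5 FPKM, SD, n = 4) and Slc38a4 (475 ± 74.4), whose libraries overlapped, to Slc7a2 (91.1 ± 16.3), which overlapped with neither neighbour. Below them came Slc6a13, a transporter of GABA and taurine, at 40.8 ± 5.63 FPKM, Slc3a2 at 28.2 ± 3.21 and Slc43a3 at 26.6 ± 2.84, each overlapping with the next. In PF fat the first was Slc1a5, the ASCT2 exchanger of glutamine, serine and alanine, at 116 ± 15.8 FPKM (SD, n = 4), with no overlap with the second. Slc3a2 (48.6 ± 5.73 FPKM), Slc43a3 (45.1 ± 6.05), Slc7a15 (42.7 ± 8.04) and Slc38a10 (38.1 ± 3.56) followed, each overlapping with the next.

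The first feed comparison asked which transporter genes differed between LA and PF liver. Slc3a2, the heavy chain, was higher under LA and Slc43a3, the nucleobase transporter, was lower. No other gene of the set passed, so 2 of the 20 tested were called, 1 in each direction, beside 4.48% of 9710 genes of all kinds (2.27% higher and 2.21% lower). The groups did not overlap for 2 of the 20, beside 12.3% of all genes. Calls rest on limma fitted to log2(FPKM + 1) across all genes that reached 1 FPKM in 4 or more of the 8 libraries, with a Benjamini-Hochberg adjusted p under 0.05. The median log2 difference was -0.05 over the 20 genes and -0.00 over all genes.

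Slc3a2 stood at 26.3, 33.0, 27.6 and 26.2 FPKM in PF liver and at 40.9, 51.0, 40.4 and 42.6 in LA liver. Every LA library lay above every PF library, and the lowest LA value exceeded the highest PF value. The log2 fold change was 0.61 (SE 0.10, limma adjusted p = 0.00769), and the call held in all 8 fits that left out a library, with adjusted p up to 0.0277. In fat the same gene was at 46.3, 56.4, 42.9 and 48.9 FPKM under PF and 58.7, 50.6, 52.3 and 51.6 under LA. These fat groups overlapped, and the log2 difference of 0.14 (SE 0.10) did not pass (limma adjusted p = 1.00). The highest LA liver library lay inside the range of the fat libraries, and no PF liver library did.

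Slc43a3 stood at 25.0, 23.7, 27.8 and 30.03 FPKM in PF liver and at 19.1, 19.9, 21.3 and 19.2 in LA liver. The LA libraries all lay below the PF libraries and were closer together. The log2 fold change was -0.40 (SE 0.085, limma adjusted p = 0.025). The call was kept in 3 of the 8 fits that left out a library and was lost without PF replicate 3 or 4 or without LA replicate 1, 2 or 4, with adjusted p up to 0.0713. It was also lost, at an adjusted p of 0.122, when limma was fitted to all 16 libraries in one model. The fat libraries had 39.3 to 53.3 FPKM under PF and 35.6 to 57.7 under LA.

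Light chains need the heavy chain to reach the cell surface, and their RNA levels were low in liver. The 6 light chains known to join Slc3a2 (Slc7a5 and Slc7a8, which carry large neutral amino acids, Slc7a6 and Slc7a7, which exchange cationic for neutral ones, Slc7a10, which carries small neutral ones, and Slc7a11, the cystine and glutamate exchanger) summed to 3.43 ± 0.34 FPKM (SD, n = 4) in liver under PF and 2.71 ± 0.19 under LA. In fat they summed to 38.2 ± 4.14 FPKM under PF and 39.0 ± 2.27 under LA. The ratio of Slc3a2 to this sum in liver was 6.85 to 10.9 under PF and 14.3 to 21.0 under LA, and in fat 1.25 to 1.29 and 1.24 to 1.46. The liver ranges did not overlap each other or those of fat. This is a description, since Slc3a2 was taken up because its own liver groups did not overlap between feeds. Of the light chains, Slc7a5, Slc7a6, Slc7a8 and Slc7a10 passed the filter through fat only, which favours a lower ratio in fat. With Slc7a15, a relative that prefers aromatic amino acids, added to the sum, the ratio in fat was 0.555 to 0.638 under PF and 0.623 to 0.751 under LA, while the liver ratios stayed as they were because Slc7a15 was listed at 0 there. FPKM is per transcript length, so these are levels of RNA set side by side and not of protein.

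**Figure D2:**
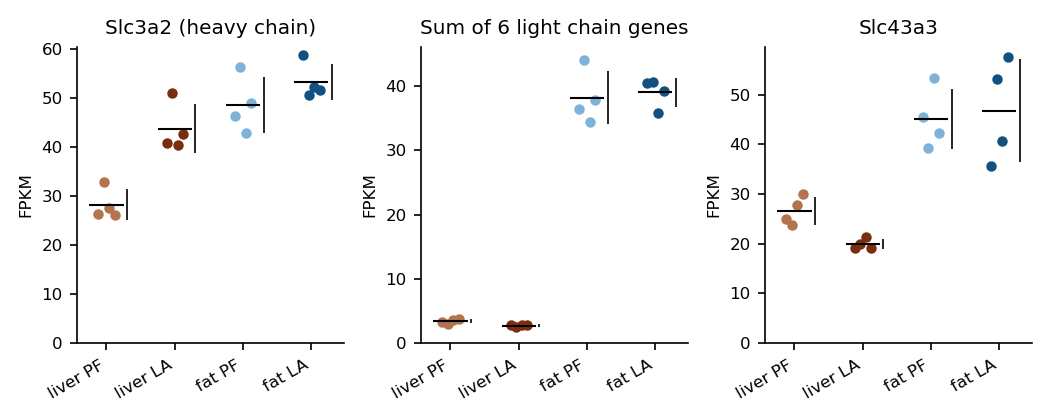
FPKM of Slc3a2, of the 6 light chain genes summed, and of Slc43a3 in each library (points), with the group mean (horizontal line) and ± 1 SD (vertical line), n = 4 per group. In liver, Slc3a2 is higher and Slc43a3 lower under LA with no overlap, and the light chain sum stays below 4 FPKM in liver and above 34 FPKM in fat.

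Among single light chains in liver, Slc7a7 was at 0.922 to 1.52 FPKM under PF and 0.742 to 1.04 under LA, a log2 difference of -0.19 that did not pass (limma adjusted p = 0.376). Slc7a5 (LAT1) was at 1.32, 0.816, 1.58 and 1.60 FPKM in PF liver and at 0.707, 0.465, 0.875 and 0.691 in LA liver. Its groups overlapped through PF replicate 2, and the gene missed the liver filter. Tested without the filter, its log2 difference was -0.46 (limma adjusted p = 0.127). Slc7a11 was below the level required for the set, at no more than 0.0171 FPKM in any liver library and 0.031 to 0.256 in fat.

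The liver-abundant carriers did not pass the test of feed. Slc38a3 was at 492, 456, 552 and 481 FPKM in PF liver and at 482, 409, 427 and 481 in LA liver, a log2 difference of -0.14 (SE 0.091, limma adjusted p = 0.444). Slc38a4 was at 400 to 565 FPKM under PF and 381 to 512 under LA. Slc7a2 was at 84.9, 70.8, 106 and 103 FPKM under PF and 93.8, 75.1, 66.6 and 60.1 under LA, a log2 difference of -0.30 (SE 0.16, limma adjusted p = 0.314). The ranges of all 3 overlapped between feeds. Beside them, 2 of 11 tested hepatocyte markers fell under LA, with a median log2 difference of -0.30 over the 11, and 2 of 11 tested macrophage markers rose, with a median of 0.45. In the other marker lists, 1 of 5 endothelial markers fell, with a median of 0.16 over the list, and 1 of 7 fibroblast or stellate markers, with a median of -0.10. Over all genes 2.27% rose and 2.21% fell. Their part in the liver results was not tested.

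Slc38a2 (SNAT2), which cells induce when amino acids run short, was at 17.4, 16.5, 10.6 and 25.3 FPKM in PF liver and 17.7, 14.7, 9.73 and 8.97 in LA liver. Its log2 difference of -0.41 had an SE of 0.25 (limma adjusted p = 0.414), the largest SE among the 20 transporter genes tested in liver. Slc1a2 (GLT-1), a glutamate transporter, was at 5.06, 3.99, 4.98 and 4.61 FPKM under PF and 8.71, 4.26, 5.44 and 9.83 under LA. LA replicates 1 and 4 were high and LA replicate 2 lay within the PF range, and the log2 difference of 0.45 (SE 0.20) did not pass (limma adjusted p = 0.244). The other liver genes whose p was among the 10 smallest were Slc43a1, which carries branched-chain and aromatic amino acids, at -0.18 (limma adjusted p = 0.292), the lysosomal arginine sensor Slc38a9 at 0.20 (0.361) and the taurine transporter Slc6a6 at 0.19 (0.394). The remaining 10 tested genes had log2 differences from -0.12 (Slc38a4) to 0.12 (Slc38a6).

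**Figure D3:**
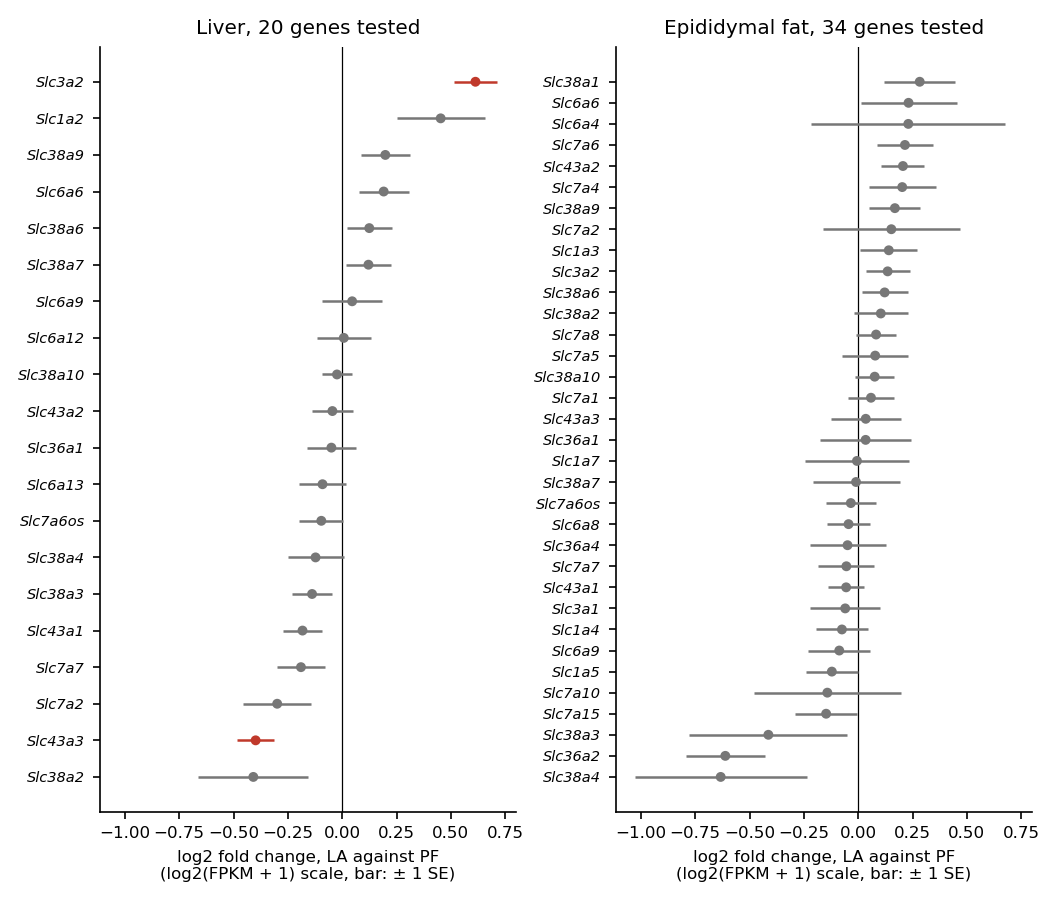
Log2 fold change, LA against PF, on the log2(FPKM + 1) scale with ± 1 SE, for the 20 genes tested in liver (left) and the 34 tested in fat (right). Red marks the genes with an adjusted p under 0.05, which are Slc3a2 and Slc43a3 in liver, and no gene in fat.

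Genes that sense or use amino acids were read from lists beside the transporters. Of the 23 listed genes of the amino acid response that ATF4 drives, 18 were tested in liver, 2 rose and none fell, with a median log2 difference of 0.19. Over all genes tested in liver 2.27% rose and 2.21% fell, so a single call in a list of this size is not read as a result about the list. The pseudokinase Trib3 went from 1.95 ± 0.756 to 15.9 ± 5.54 FPKM (SD, n = 4; log2 fold change 2.50, limma adjusted p = 0.000451). Phgdh, the first enzyme of serine synthesis, went from 0.165 ± 0.119 to 3.18 ± 1.85 FPKM (SD, n = 4, log2 fold change 1.74). Phgdh passed the filter through the LA liver libraries only, so its difference is a description and no p is given. Of 12 tested genes of glutathione synthesis and cystine use, Gclm, a subunit of the enzyme that joins glutamate and cysteine, rose by 0.44 (limma adjusted p = 0.0309) and Chac2, which breaks glutathione down, fell by 0.40 (adjusted p = 0.0495). Of 11 genes of glutamine and glutamate enzymes, Pycr1, which makes proline, rose by 0.61 (limma adjusted p = 0.0309). No gene was called among 30 of amino acid catabolism (median -0.15), 7 of other carriers, with Slc7a6os counted among them again (median 0.12), 7 partners of the transporters (median 0.06) and 9 of lysosomal amino acid sensing (median 0.02).

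The second feed comparison asked the same of fat, and no transporter gene passed. Of 34 tested genes, 0 were called by limma and 1 had an unadjusted p under 0.05, beside 0.0174% of 11501 genes called (2 genes, 0.00869% in each direction) and 451 genes at an unadjusted p under 0.05. The groups did not overlap for 0 of the 34, beside 2.08% of all genes. The median log2 difference was 0.03 over the 34 genes and 0.01 over all genes. No gene of the lists above was called in fat either.

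The fat gene with the smallest p was Slc36a2, a proton-coupled carrier of small amino acids known as a surface marker of brown and beige fat cells. The PF libraries had 5.16, 4.37, 2.90 and 4.37 FPKM, and the LA libraries 2.44, 3.30, 2.31 and 1.60. PF replicate 3 lay below LA replicate 2, so the groups overlapped, and the log2 difference of -0.61 (SE 0.18, unadjusted p = 0.00768) had a limma adjusted p of 1.00. The next were Slc43a2, a carrier of large neutral amino acids, at 0.21, Slc38a1, a glutamine transporter, at 0.28, Slc7a6 at 0.21, Slc38a4 at -0.63 and Slc38a9 at 0.17, all with the same limma adjusted p of 1.00. Slc1a5, the most abundant of the set in fat, was at 129, 130, 107 and 98.4 FPKM under PF and 115, 111, 109 and 91.1 under LA, with overlapping groups. Apart from these and Slc3a2, the remaining 27 genes, Slc1a5 among them, had log2 differences from -0.41 (Slc38a3) to 0.23 (Slc6a6).

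The difference of the LA effect between tissues was then tested over all 16 libraries, as the change in fat minus the change in liver. Of the 37 genes, 0 were called by limma and 4 had an unadjusted p under 0.05, beside 0.381% of 12079 genes called (46 genes, 0.149% higher and 0.232% lower) and 991 at an unadjusted p under 0.05. The 4 genes were Slc3a2 at -0.48 (SE 0.14, limma adjusted p = 0.236), Slc36a2 at -0.60 (0.311), Slc7a5 at 0.54 (0.424) and Slc43a3 at 0.43 (0.548). Slc3a2 was called in liver and not in fat, but the difference between the tissues itself did not pass. The other 33 genes ranged from -0.51 (Slc38a4) to 0.51 (Slc38a2). Of the 21 listed amino acid response genes tested, Phgdh, Trib3 and Vldlr were called, all 3 with a difference below 0 (the change in fat minus the change in liver). Phgdh passed the liver filter through LA libraries only, as said above, so its part in this count is a description.

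The tissues differed far more than the feeds. Under PF, 23 of 34 tested genes passed limma's adjusted p under 0.05 with a log2 fold change over 1 in size, 16 higher and 7 lower in fat, beside 47.4% of 11492 genes of all kinds (36.3% higher and 11.1% lower). Under LA, 25 of 35 passed, 18 higher and 7 lower in fat, beside 46.4% of 11568 genes (36% higher and 10.5% lower). The groups did not overlap for 30 of 34 genes under PF, beside 80.2% of all genes, and for 32 of 35 under LA, beside 79.9%. The filter favours a difference in genes that passed it through a single tissue, so these counts are a description. Among the 17 genes found in both tissues, 4 were higher in fat, 4 lower and 9 not called under PF, and 6, 4 and 7 under LA. The median of all genes was 0.66 higher in fat under PF and 0.65 higher under LA on the log2 scale. Centred on that median, the calls were 10 higher and 8 lower under PF (all genes 2253 and 2064), and 11 higher and 8 lower under LA (all genes 2292 and 1985). Centring ended the calls of Slc36a4, Slc38a1, Slc38a10, Slc43a2, Slc6a6 and Slc7a1 under PF and of Slc36a4, Slc38a1, Slc38a10, Slc43a3, Slc6a6, Slc7a5 and Slc7a6os under LA, all higher in fat before it. It added Slc43a1, lower in fat, under both feeds.

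In the Slc1 family, 4 genes were tested between tissues, and Slc1a5 and Slc1a3 were higher in fat, Slc1a2 was higher in liver and Slc1a4 was not called. All 4 passed the filter through a single tissue, so the values describe them and no p is given. Slc1a5 was at 0.11 to 0.22 FPKM in PF liver against 98.4 to 130 in PF fat (log2 fold change 6.64, SE 0.11), and at 0.0985 to 0.345 against 91.1 to 115 under LA (6.46). Slc1a3 (GLAST), a glutamate transporter, was at no more than 0.0594 FPKM in liver and in fat at 16.5 to 24.6 under PF, against 20.3 to 26.3 under LA (4.38 under PF and 4.53 under LA). Slc1a4, a carrier of serine and alanine, was at 0.0959 to 0.815 FPKM in PF liver and 1.34 to 1.97 in PF fat, a log2 difference of 0.83 that stayed under the fold required. Slc1a2 was at 3.99 to 5.06 FPKM in PF liver, with fat at 0.079 to 0.155 FPKM (log2 fold change -2.34 under PF and -2.78 under LA).

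Of the 6 light chains, Slc7a6, Slc7a7, Slc7a8 and Slc7a10 were called higher in fat under both feeds and Slc7a5 under LA alone, while Slc7a11 was too low to test. Apart from Slc7a7, they passed the filter through fat only, so their differences are a description. Slc7a6 was at 9.16 to 13.4 FPKM in PF fat against 0.0863 to 0.212 in PF liver (log2 fold change 3.34, SE 0.12), with the caution on its neighbour given above. Slc7a8 (LAT2) was at 7.03 to 8.99 FPKM against 0.154 to 0.264 (2.92, SE 0.10). Slc7a7 was at 8.25 to 11.4 FPKM against 0.922 to 1.52 (2.26, SE 0.13). Slc7a10 (ASC-1), found at the surface of white fat cells, was at 6.46, 13.4, 5.63 and 2.91 FPKM in PF fat and 4.62, 6.37, 4.36 and 7.44 in LA fat, the widest scatter among the light chains, against 0.308 to 0.77 in liver (2.25 under PF). Slc7a15 was at 47.1, 51.0, 32.8 and 40.1 FPKM in PF fat and 37.8, 40.6, 42.0 and 32.3 in LA fat and was listed at 0 in all 8 liver libraries, so no fold is given.

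Members of lower level that passed the filter through fat only are given as a description. Slc36a2 was at 2.90 to 5.16 FPKM in PF fat against at most 0.031 in PF liver (log2 fold change 2.35, SE 0.13), and it was listed at 0 in all LA liver libraries. Slc36a4, another proton-coupled carrier, was at 2.20 to 3.81 FPKM in PF fat against 0.526 to 0.699 in PF liver (1.29, SE 0.14). Slc38a1 was at 1.08 to 1.98 FPKM against no more than 0.153 (1.16, SE 0.13). Slc7a1 (CAT1), the widespread carrier of cationic amino acids, was at 1.02 to 1.19 FPKM against 0.0273 to 0.07 (1.01, SE 0.085), and under LA it was not called (0.96, SE 0.083). Its relative Slc7a2 was higher in liver. Slc7a4 reached 1 FPKM in 4 libraries alone, all in fat, at 0.859 to 1.81 FPKM over the fat libraries. Of the genes found in both tissues, Slc38a6 differed by 0.56 under both feeds, under the fold required. Slc7a6os differed by 0.94 under PF and by 1.01 under LA, where it was called.

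Heavy chains and Slc7a5 were closer between tissues. Slc3a2 was higher in fat by 0.76 (SE 0.11) on the log2 scale under PF and by 0.28 (SE 0.096) under LA, both under the fold required, and the value under LA changed sign, to -0.39, when each library was centred on its median. Slc7a5 differed by 0.62 (SE 0.13) under PF, which became -0.049 after centring, and by 1.16 (SE 0.15) under LA, where it was called. Slc3a1 (rBAT), the heavy chain of kidney and gut, was at 0.463 to 0.932 FPKM in liver and 0.84 to 2.06 in fat. Its difference of 0.39 under LA also changed sign with centring, to -0.28.

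In the Slc6 family, fat was higher for Slc6a8, the creatine transporter, at 17.6 to 23.3 FPKM against 0.26 to 0.554 in PF liver (log2 fold change 3.85, SE 0.12). The taurine transporter Slc6a6 was at 4.33 to 8.24 FPKM in PF fat against 0.98 to 1.77 in PF liver (1.55, SE 0.18). Slc6a4, taken up again below, was also higher in fat under both feeds (2.89 under PF and 3.14 under LA), with at most 0.033 FPKM in PF liver. Liver was higher for Slc6a13, at 32.8 to 45.9 FPKM against 0.511 to 0.932 in PF fat (-4.56, SE 0.12). The betaine and GABA transporter Slc6a12 was at 8.86 to 12.8 FPKM against 0.0589 to 0.302 (-3.27, SE 0.13), and the glycine transporter Slc6a9 was at 8.01 to 12.8 FPKM against 0.981 to 1.63 (-2.45, SE 0.15). Slc6a4 and Slc6a8 passed the filter through fat only and Slc6a12 and Slc6a13 through liver only, so their differences are a description. The call of Slc6a6 was lost with median centring under both feeds (0.88 under PF and 0.92 under LA).

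Among lysosomal members, Slc38a9, Slc38a7 and Slc36a1 stayed under the fold required. Slc38a9, the arginine sensor of the lysosome, was at 3.18 to 3.48 FPKM in PF fat and 3.32 to 4.69 in PF liver (log2 difference -0.19, SE 0.10). Slc38a7, a lysosomal carrier of glutamine, was at 2.24 to 5.03 FPKM against 3.70 to 5.45 (-0.10, SE 0.19). Slc36a1, a proton-coupled carrier of lysosomes, was at 2.31 to 4.69 FPKM against 1.55 to 2.47 (0.34, SE 0.18), and its sign turned to -0.33 under PF and -0.25 under LA with median centring. Slc38a2 was 0.43 higher in fat under PF, which turned to -0.24 with centring. Slc38a10 passed the fold required, at 32.8 to 40.2 FPKM in PF fat against 15.9 to 17.5 in PF liver (1.15, SE 0.090). In the Slc43 family, Slc43a1 was 0.64 lower in fat under PF (SE 0.10), Slc43a2 was 1.44 higher (SE 0.10) and Slc43a3 was 0.74 higher (SE 0.11), of which Slc43a2 alone passed the fold required. Under LA, Slc43a3 passed as well (1.17, SE 0.14).

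The most abundant carriers in liver were Slc38a3 (log2 fold change -6.85 in fat, SE 0.16, limma adjusted p = 1.63e-11), Slc38a4 (-6.83, SE 0.22) and Slc7a2 (-4.22, SE 0.24) under PF. Their low values in fat were set beside the hepatocyte markers in the same libraries, each as a percentage of its mean in liver under the same feed. Over 11 hepatocyte markers the median in fat was 0.531%, 0.399%, 0.463% and 0.896% in PF replicates 1 to 4 and 0.414%, 0.318%, 0.979% and 0.105% in LA replicates 1 to 4. Slc38a3 was at 0.641%, 0.504%, 0.552% and 1.05% in the PF libraries and 0.489%, 0.371%, 1.32% and 0.183% in the LA libraries. It lay within the range of the 11 markers in 7 of 8 fat libraries. Slc38a4 was at 0.649%, 0.474%, 0.474% and 1.21% under PF and 0.489%, 0.29%, 0.998% and 0.0783% under LA, within the range in 6 of 8. Both were highest in PF replicate 4 and LA replicate 3 and lowest in LA replicate 4, as the markers were.

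Slc7a2 did not follow that order. Its fat level was 6.04%, 2.35%, 6.32% and 3.36% of liver in the PF libraries and 2.98%, 8.15%, 5.66% and 8.56% in the LA libraries, above the marker range in all 8, and highest in LA replicate 4, where the markers were lowest. Slc6a13 (1.25% to 3.23%), Slc6a12 (0.574% to 3.14%), Slc1a2 (1.57% to 3.32%) and Slc6a9 (7.49% to 14.8%) were also above the marker range in all 8 fat libraries. The part of hepatocyte RNA in the fat levels of these genes was not tested beyond these values.

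**Figure D4:**
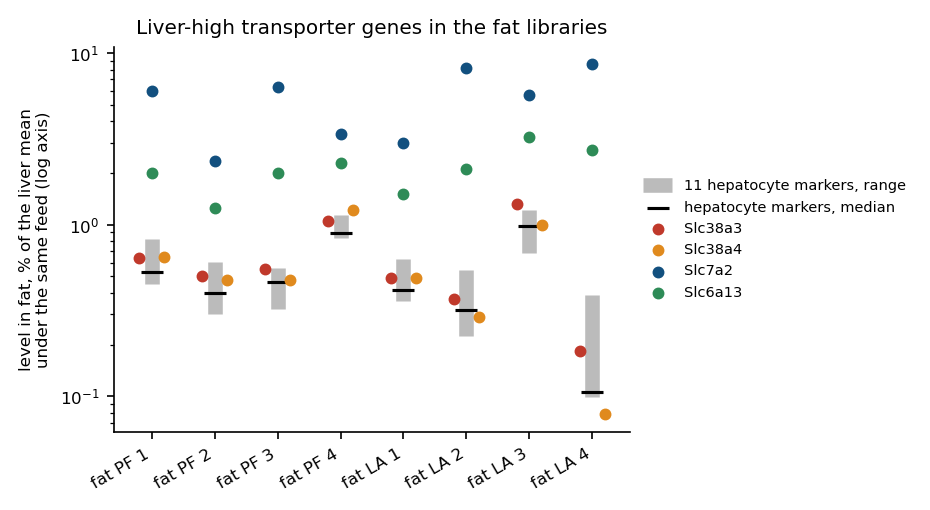
Level of 4 liver-high genes in each of the 8 fat libraries as a percentage of the liver mean under the same feed (log axis), beside the range (grey) and median (black) of 11 hepatocyte markers. Slc38a3 and Slc38a4 lie in or next to the grey bars in every library, and Slc7a2 and Slc6a13 lie above them.

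In fat, some genes varied among libraries of a feed by more than the feeds differed. Slc6a4, the serotonin transporter, was at 2.28, 10.8, 10.7 and 5.96 FPKM in PF replicates 1 to 4 and 3.80, 10.2, 6.72 and 13.4 in LA replicates 1 to 4. The 5 mesothelial markers, whose cells line the surface of the fat pad, summed to 46.7, 322, 342 and 207 FPKM in the PF libraries and 122, 362, 274 and 396 in the LA libraries, against 0.222 to 2.36 in liver. PF replicate 1 and LA replicate 1 were lowest in both measures and LA replicate 4 was highest in both. Slc1a7, a glutamate transporter, was at 0.958, 1.67, 2.54 and 1.70 FPKM under PF and 0.777, 1.79, 1.73 and 2.63 under LA, again with both first replicates lowest and LA replicate 4 highest. Slc7a2 was at 5.50, 2.14, 5.75 and 3.06 FPKM under PF and 2.20, 6.03, 4.18 and 6.33 under LA. Its PF replicate 1 was high where the markers were lowest, and its PF replicate 2 was low where they were high. Under LA, however, the order of its libraries was that of the markers. Slc6a6, Slc36a4 and Slc43a3 also had the order of the markers under LA and not under PF. The part of mesothelial cells in these values was not tested.

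**Figure D5:**
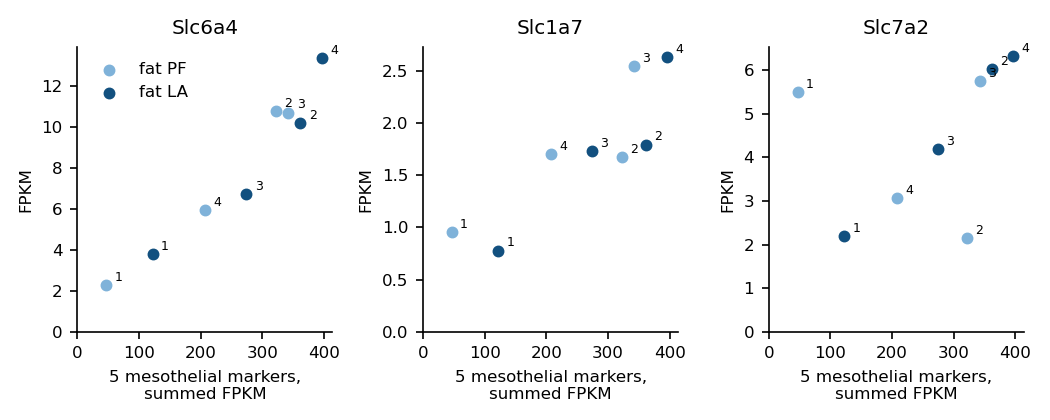
FPKM of Slc6a4, Slc1a7 and Slc7a2 in the 8 fat libraries against the summed FPKM of 5 mesothelial markers, with replicate numbers beside the points. Slc6a4 and Slc1a7 are low where the markers are low (replicate 1 of each feed) and highest in LA replicate 4. Slc7a2 is high in PF replicate 1 but has the order of the markers under LA.

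The listed genes that sense or use amino acids were also counted between tissues, beside the 36.3% of all genes called higher and 11.1% called lower in PF fat. Of 31 tested genes of amino acid catabolism, 22 were lower and 3 higher in PF fat, with a median log2 difference of -5.61 beside 0.66 over all genes. The 3 higher ones were Bcat1 (3.41) and Bcat2 (4.62), the aminotransferases of branched-chain amino acids, and Bckdk (1.14), the kinase that holds the next step back. Of 21 amino acid response genes, 13 were higher and 4 lower in PF fat (median 1.46). In the feed fits, 30 catabolism genes passed the filter in liver and 24 in fat. For the response genes these numbers were 18 and 21. The filter favours a higher level in the tissue through which a gene passed, so the counts and medians of both lists are a description. Other carriers of amino acids and peptides gave 2 higher and 1 lower of 8, partners of the transporters 4 higher of 8, and lysosomal amino acid sensing 2 higher of 10. These last 3 lists hold few genes, and nothing is read from their counts.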

How the data were processed

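Liver and epididymal fat of 8 rats were sequenced in 16 libraries, 4 per tissue and feed, and grouped by the labels. Per the labels' protocols, RNA came from TRIzol and RNeasy purification and libraries from the TruSeq V2 kit, so strand is unmarked. The authors deposited FPKM values, 1 per gene symbol and library, made with CASAVA 1.8.2, TopHat and Cuffdiff, per the submitters' processing notes. For genome build, annotation and settings, the sources used here give no statement. The files hold no counts, so no counting interval is given.

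Values were tested two-sided as log2(FPKM + 1) by limma 3.58.1 (R 4.3.3, trend fitted), over all genes that reached 1 FPKM in 4 or more libraries of the fit, with Benjamini-Hochberg adjustment over those genes. Calls needed an adjusted p under 0.05. For tissues a log2 fold change over 1 in size was required too. Fold changes on this scale understate changes of low genes. Liver and fat were fitted apart for the feeds, and the difference of feed effects over all 16 libraries. Each rat gave liver and fat, but no label says which libraries share a rat, so libraries were treated as independent. No replicate pair held identical values, and within-group correlations across genes were 0.971 to 0.994. The fits were tested on simulated data.

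Members, gene lists and marker lists were chosen with earlier results of these data known. Full values were given for genes called under a feed, for the smallest p of each feed comparison, for the 8 largest differences between tissues in each direction under PF and for a preset of transporters. The alternatives run were median centring, an adjusted p under 0.1, a model of all 16 libraries, a replicate block, a pseudocount of 0.1, omission of the filter and omission of each replicate in turn. A minimum of 3 libraries for the tissue comparisons with a replicate left out was added after seeing the data. Promoter windows came from RefSeq tables of the GRCr8 assembly, which is not known to be the build of the files. Part of the tissue comparison of the enzyme lists is not reported here.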

Additional observations from a re-analysis of the deposited data

Results flagged for a closer look

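Among 83 sets of 4 libraries checked (the named genes in each group with a mean of at least 1 FPKM), 5 held a single library far from the other 3, with a gap to the nearest of them above Dixon's critical share of the group's range. Chance flags about 1 set in 20. Slc36a1 was at 1.55 FPKM in PF liver replicate 2, below the 2.36 to 2.47 of the other PF liver libraries. Slc38a9 was at 5.80 FPKM in LA liver replicate 1, above the 4.24 to 4.49 of the others. In PF fat, Slc38a2 was at 18.6 FPKM in replicate 2 against 23.95 to 24.8, and Slc7a5 was at 2.88 FPKM in the same replicate against 2.44 to 2.46. Slc6a9 was at 1.63 FPKM in PF fat replicate 3 against 0.981 to 1.09. Of these 5 genes, none was called between feeds in the group's tissue by limma, and the sets without those libraries are covered by the fits that left out a replicate.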

How the results depend on the processing

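In liver, the count of 2 transporter genes called stayed at 2 under the pseudocount, filter, centring and block alternatives, was 1 with all 16 libraries in one model, and was 1 to 2 when a replicate was left out. Over all genes the liver count of 435 became 848 at an adjusted p under 0.1 and 208 to 404 with a replicate left out (208 without LA replicate 2, 267 without PF replicate 1). In fat no transporter gene was called under any alternative run, and the 2 calls over all genes became 1 with a pseudocount of 0.1, 1 with the replicate block, 7 with all 16 libraries in one model and 0 to 2 with a replicate left out. For the difference between tissues the 46 genes became 94 at an adjusted p under 0.1, 22 without a filter and 19 to 60 with a replicate left out, with no transporter gene among them. Between tissues, the counts of 23 under PF and 25 under LA became 11 to 21 and 12 to 24 with a replicate left out. The lowest counts came from leaving out a fat library (any of the 4), where only genes also present in liver could reach 4 libraries (21 genes tested under PF and 20 under LA). With a minimum of 3 libraries, chosen after seeing the data, they were 22 to 25 and 25 to 28. Median centring reversed the sign of Slc36a1 (-0.33), Slc38a2 (-0.24) and Slc7a5 (-0.049) between tissues under PF and of Slc36a1 (-0.25), Slc3a1 (-0.28) and Slc3a2 (-0.39) under LA. It also moved the share of calls higher in fat from 76.6% to 52.2% of all genes under PF and from 77.5% to 53.6% under LA. Libraries with the same replicate number did not deviate together in every pair (correlations of 0.004 to 0.15 in liver and -0.43 to -0.06 in fat between feeds). Between liver and fat, where a number could mark one rat, they were 0.07, 0.30, 0.12 and -0.03 under PF, with the own number highest in 3 of 4 pairs. Under LA they were -0.14, 0.12, 0.10 and -0.23, with the own number highest for replicates 2 and 3. These values do not settle whether a number marks one rat, and the numbers were not taken to pair samples. With the replicate block the transporter counts were 2 in liver, 0 in fat, 23 and 25 between tissues and 0 for the difference, and the counts over all genes in liver and for the difference were 476 and 37. Depth limits genes under 1 FPKM, whose fold changes on this scale are small by construction.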
